A study of Saccharomyces cerevisiae with 12 samples.

Results

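The comparison described here is of *Saccharomyces cerevisiae* cells lacking *SIS2* with WT cells, both grown in low potassium. It used 6 of the 12 libraries of the experiment, 3 of *sis2*Δ and 3 of WT in 0.5 mM KCl. The other 6 libraries, of both strains in 7.35 mM KCl, entered the same fit and are given only to show where the low-potassium values differed. WT was the strain CGY41.30 (genotype MATa), and the mutant was CGY41.34 (MATa *sis2d0::kanMX*), in which a drug-resistance cassette replaced the gene. Each genotype was thus 1 strain, so that a difference between strains and a difference due to the deletion cannot be told apart. All cultures were inoculated from synthetic complete medium at pH 4.5, reached saturation overnight in 7.35 mM KCl, and were then diluted into the test medium. They stayed in exponential growth for 24 h at an OD600 of no more than about 0.1, in biological triplicate.

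*SIS2* (also called *HAL3*) encodes a protein that binds and inhibits Ppz1p, a phosphatase that restrains potassium uptake through the Trk1p transporter, and it also takes part in an enzyme of coenzyme A synthesis. Yeast responds to scarce phosphate through the transcription factor Pho4p, which turns on phosphate transporters, secreted acid phosphatases and the VTC complex that makes polyphosphate in the vacuole. It responds to scarce amino acids through Gcn4p, which turns on genes of amino acid synthesis across many pathways.

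The measured values were expected counts per gene, which need not be whole numbers, and how reads shared by several features were counted is not given in the sources used here. Levels are given as counts scaled to the normalized library size (CPM), and differences as log2 fold changes of *sis2*Δ relative to WT. The 0.5 mM KCl libraries held between 37362290 and 41748204 counts in WT and between 35451323 and 43994899 in *sis2*Δ. The mating-type label was checked by marker genes. The 7 a-specific genes summed to between 2450 and 3020 CPM in WT and between 2470 and 2640 CPM in *sis2*Δ, against 67.5 to 73.9 CPM for the 4 alpha-specific genes over the 6 libraries, and 0 of the 11 genes were called by edgeR or DESeq2 (3 at an unadjusted p under 0.05). *sis2*Δ replicate 2 stood apart in 0.5 mM KCl. Its log2 values deviated most from the group mean, with an SD of 0.107 across genes against 0.067 to 0.0919 in the other 5 libraries, and it was the *sis2*Δ library nearest to WT for 68 of the 118 called genes besides *SIS2*.

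In 0.5 mM KCl, the quasi-likelihood test of edgeR called 80 genes higher and 39 genes lower in *sis2*Δ (p below 0.05 after Benjamini-Hochberg adjustment), which was 1.78% of the 6691 genes tested (1.2% higher and 0.583% lower). The unadjusted p was under 0.05 for 976 genes. The 3 *sis2*Δ and 3 WT values did not overlap for 118 of the 119 genes, against 16.8% of all genes tested, and the exception was *HSP26*. The genes were chosen by a test on these same values, so that the separation is a description and no further support. Most changes were small. The median size was 0.44 on the log2 scale among the 80 higher genes, of which 7 reached 1, and 0.35 among the 38 lower genes besides *SIS2*, of which 1 reached 1. The median log2 fold change over all genes tested was 0.00.

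The count of called genes depended on single libraries. It was 61 without WT replicate 1, 60 without *sis2*Δ replicate 1 and 54 without *sis2*Δ replicate 3, and it was 440 without *sis2*Δ replicate 2, a set that held 113 of the 119 genes. Of the 119 genes, 40 were called whichever of the 12 libraries was left out, 30 of them higher and 10 lower in *sis2*Δ. These 40 are called robust below. By contrast, 48 of the 119 lost the call without at least 4 of the 6 low-potassium libraries.

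**Figure D1:**
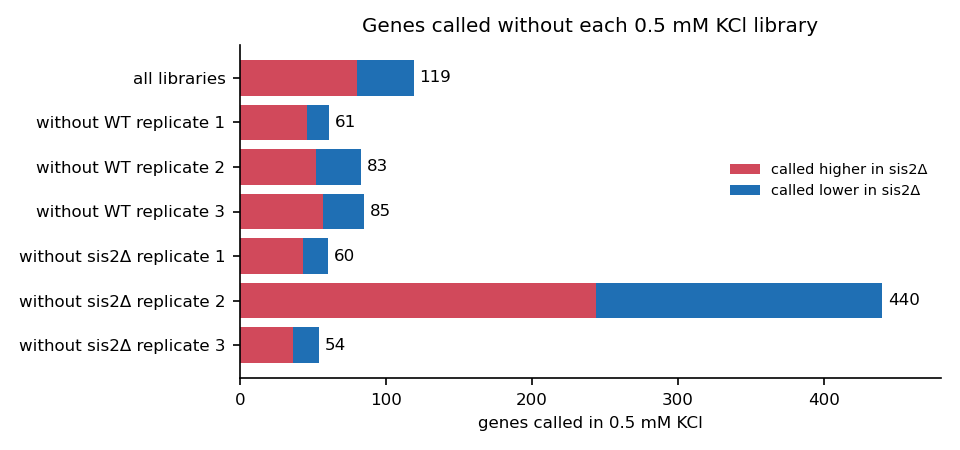
Number of genes called higher (red) or lower (blue) in *sis2*Δ in 0.5 mM KCl with all libraries and without each low-potassium library in turn; the number at the end of each bar is the total. The total fell to between 54 and 85 without any one of 5 libraries and was 440 without *sis2*Δ replicate 2.

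The targeted gene was checked first. *SIS2* (YKR072C; R64, chromosome XI, 576435 to 578123, minus strand) was at 92.5, 83.0 and 82.9 CPM in WT and at 1.5, 1.91 and 2.07 CPM in *sis2*Δ. All 3 *sis2*Δ libraries were far below all WT libraries, with a log2 fold change of -5.55 (with an SE of 0.100 and an adjusted p = 2.7e-20 by edgeR, Benjamini-Hochberg). Of its 7 neighbours examined, YKR073C, 63 bp away on the same strand, was the only one called. It was at 2.72, 2.61 and 2.58 CPM in WT and at 1.94, 1.29 and 1.64 CPM in *sis2*Δ. The groups did not overlap (log2 fold change -0.70, adjusted p = 0.0103 by edgeR), though the call was lost without WT replicate 1 or *sis2*Δ replicate 3. *DRE2*, an essential gene of cytosolic iron-sulfur cluster assembly that lies 454 bp on the other side, had a log2 fold change of 0.19 (adjusted p = 0.0649 by edgeR), and DESeq2 called it (adjusted p = 0.0203).

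Genes of the phosphate-starvation response were higher in *sis2*Δ. This list and the others below were chosen with earlier results of these data known, so that their counts are descriptions and not independent tests. Of the 17 members listed as targets of this response, 15 were called higher and 0 lower, against 1.2% of all genes tested that were called higher. Both groups of libraries were separate for the same number of members, 15 of 17, against 9.12% of all genes. The median log2 fold change of the list was 0.61, against 0.00 over all genes, and all 17 values were positive. Summed over the 17 genes, the level lay between 4110 and 4790 CPM in WT and between 6730 and 8210 CPM in *sis2*Δ. Of the 15 calls, 12 were robust, and the list had between 12 and 16 calls without any one low-potassium library.

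The secreted acid phosphatases, which free phosphate outside the cell, were among the largest changes. *PHO5*, the main one, was at 1159, 970.3 and 1173 CPM in WT and at 2119, 1819 and 2583 CPM in *sis2*Δ. The lowest *sis2*Δ library was above the highest WT library (log2 fold change 0.98, SE 0.0934, adjusted p = 1.14e-06 by edgeR). *PHO11* was at 86.3, 65.9 and 68.3 CPM in WT and at 151, 119.9 and 183 CPM in *sis2*Δ, with a log2 fold change of 1.04 (with an SE of 0.108 and an adjusted p = 2.8e-06 by the same test). Its near-identical copy *PHO12* had a log2 fold change of 0.79 (adjusted p = 5.84e-05 by edgeR), and reads shared by the copies may have been divided between them. For all 3 genes *sis2*Δ replicate 2 was the lowest of the mutant libraries.

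The transporters rose as well. *PHO84*, the main high-affinity phosphate transporter, was at 1423, 1176 and 1198 CPM in WT and at 2215, 2104 and 2266 CPM in *sis2*Δ, with no overlap and little spread in the mutant (log2 fold change 0.79, SE 0.0886, adjusted p = 8.93e-06 by edgeR). *PHO89*, which brings in phosphate with sodium, was at 22.7, 15.9 and 17.8 CPM in WT and at 29.4, 27.8 and 42.8 CPM in *sis2*Δ (log2 fold change 0.83, adjusted p = 0.00057 by edgeR). *GIT1*, a carrier of glycerophosphoinositol, had a log2 fold change of 0.45 (adjusted p = 0.0125 by edgeR), but it lost the call without WT replicate 2 or *sis2*Δ replicate 3. *PHO86*, needed for Pho84p to leave the endoplasmic reticulum, had one of 0.29 (adjusted p = 0.0236 by edgeR) and lost the call without any one of 4 low-potassium libraries and in a fit of the 6 low-potassium libraries alone.

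Genes of polyphosphate storage and of the response itself followed. *VTC1* was at 444, 418 and 464 CPM in WT and at 669.9, 627 and 779.8 CPM in *sis2*Δ (log2 fold change 0.65, SE 0.0727, adjusted p = 9.13e-06 by edgeR). *VTC3* had a log2 fold change of 0.61 (adjusted p = 1.14e-06) and *VTC4*, the polymerase subunit, one of 0.52 (adjusted p = 1.83e-05), both by edgeR and both robust. *VTC2* had the smallest increase of the complex, 0.26 (adjusted p = 0.016 by edgeR), and lost the call without WT replicate 2, WT replicate 3 or *sis2*Δ replicate 1. *SPL2*, which lowers the use of low-affinity phosphate carriers, was at 31.9, 29.7 and 35 CPM in WT and at 56.7, 54.1 and 72.4 CPM in *sis2*Δ, groups that lay well apart (log2 fold change 0.92, adjusted p = 2.54e-06 by edgeR). *PHM6* had a log2 fold change of 1.01 (with an SE of 0.07 and an adjusted p = 5.5e-09), *PHM8*, a nucleotide phosphatase, one of 0.52 (adjusted p = 0.000146), and *PHO81*, the inhibitor of the Pho80p-Pho85p kinase, one of 0.44 (adjusted p = 0.00016), all by edgeR and all robust. The remaining 2 targets were not called: *PHO8*, the vacuolar alkaline phosphatase, had a log2 fold change of 0.25 (adjusted p = 0.0792) and *PHM7* one of 0.12 (adjusted p = 0.664), both by edgeR.

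**Figure D2:**
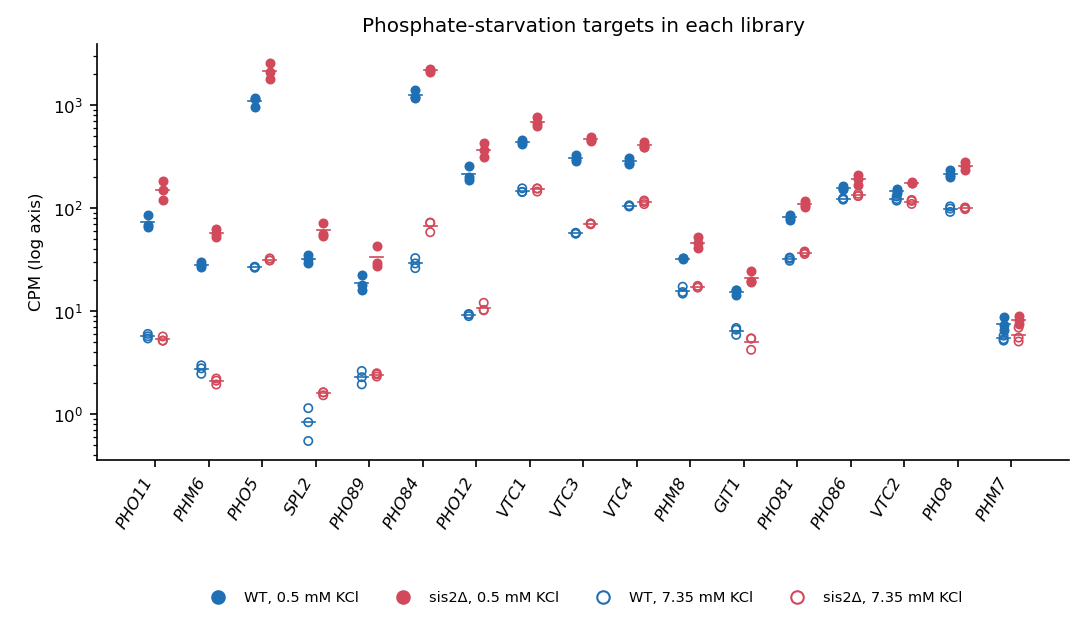
Levels of the 17 phosphate-starvation targets in each of the 12 libraries, in CPM on a log axis and ordered by log2 fold change in 0.5 mM KCl; points are libraries, short lines are group means, filled symbols are 0.5 mM KCl and open symbols 7.35 mM KCl. In 0.5 mM KCl the *sis2*Δ points lie above the WT points without overlap for 15 of the 17 genes.

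Other phosphate-related genes were of mixed behaviour. *GDE1*, which breaks down glycerophosphocholine, was at 53.1, 46.5 and 48.7 CPM in WT and at 60.9, 65.5 and 62.2 CPM in *sis2*Δ (log2 fold change 0.35, adjusted p = 0.00127 by edgeR, robust). *DDP1*, a polyphosphatase, had a log2 fold change of 0.32 (adjusted p = 0.0103 by edgeR), with the call lost without any one of 4 low-potassium libraries. These 2 genes were not on the list and were chosen after their values were seen. The list, too, was chosen with earlier results known. On a separate list of 11 regulators and low-affinity carriers, 0 genes were called by edgeR or DESeq2, 2 had an unadjusted p under 0.05, and the median log2 fold change was 0.03. *PHO4* itself had a log2 fold change of 0.09 (with an SE of 0.0703 and an adjusted p = 0.57), *PHO80* one of 0.01 (SE 0.0645, adjusted p = 0.946) and *PHO85* one of 0.09 (SE 0.061, adjusted p = 0.514), all by edgeR.

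The same genes had very different levels in the other medium. In 7.35 mM KCl, *PHO5* was at 26.5 to 27 CPM in WT and 31.1 to 32.6 CPM in *sis2*Δ, and *PHO84* was at 26.2 to 32.8 CPM in WT and 58.6 to 72.6 CPM in *sis2*Δ. The 17 targets summed to between 788 and 803 CPM in WT and between 854 and 896 CPM in *sis2*Δ there. In that medium 4 of the 17 were called higher and 1 lower, against 13.4% of all genes called in either direction (6.38% higher and 7.04% lower), with a median of 0.12. The difference of the *sis2*Δ effect between the media was tested as an interaction, which called 2.74% of all genes (1.7% with the larger value in 0.5 mM KCl and 1.03% with the larger value in 7.35 mM KCl). It was called for 8 of the 17 targets, each time with the larger value in 0.5 mM KCl: *PHM6* (1.40), *PHO11* (1.14), *GIT1* (0.81), *PHO5* (0.74), *VTC1* (0.61), *VTC4* (0.40), *PHM8* (0.39) and *VTC2* (0.35). For *PHO84* the interaction was -0.41 (adjusted p = 0.0923 by edgeR), with log2 fold changes of 0.79 in 0.5 mM and 1.21 in 7.35 mM KCl.

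The promoters of these genes were read from the R64 genome, in a window from 250 bases before to 50 after the coding start, and searched on both strands for CACGTG, the core letters bound by Pho4p, which are also those of the Cbf1p site. The motif stood in 4 of the 15 called phosphate targets (26.7%), in 8 of the 64 called higher genes with a promoter sequence (12.5%), in 2 of the 37 called lower (5.41%) and in 172 of all 5895 promoters (2.92%). It also stood in 11 of the 88 genes of the amino acid lists described below (12.5%), the same share as in the called higher genes. A match is a description of the letters, and a promoter without one in this window may hold it elsewhere. The stretches of the 4 phosphate targets are shown because they carry the motif in the list with the most higher calls, with capitals marking CACGTG and 20 bases on each side, 5′ to 3′ on the strand of the gene.
*VTC1* (chrV:302629-302674, plus strand): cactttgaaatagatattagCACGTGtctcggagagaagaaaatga
*SPL2* (chrVIII:375222-375267, minus strand): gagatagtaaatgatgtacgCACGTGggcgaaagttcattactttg
*PHO86* (chrX:192321-192366, plus strand): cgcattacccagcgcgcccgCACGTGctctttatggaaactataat
*VTC4* (chrX:413499-413544, minus strand): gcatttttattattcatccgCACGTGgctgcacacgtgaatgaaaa
The stretch of *VTC4* holds the motif again in lower case, and the window of *SPL2* holds it at 2 further places. The other 4 higher genes with the motif were *DDP1*, *SNA3*, YHR033W and YIR042C.

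Genes of amino acid metabolism were lower in *sis2*Δ, and by less. The lists used hold mostly genes of synthesis but also some of breakdown, such as *CHA1* and *GCV2*. Over 7 lists with 88 genes, 17 were called lower and 0 higher, against 0.583% of all genes called lower, 73 of the 88 log2 fold changes were negative, and their median was -0.12. The calls rested on few libraries: 7 were left without WT replicate 1, 9 without WT replicate 3, 6 without *sis2*Δ replicate 1, 8 without *sis2*Δ replicate 3 and 10 without *sis2*Δ replicate 2 of 7.35 mM KCl. Without *sis2*Δ replicate 2 of 0.5 mM KCl, 14 genes were lower and 1 higher. The median stayed negative in each of these fits, between -0.13 and -0.08. Robust were 5 of the 17 calls, those of *ARG1*, *ARG4*, *ARG7*, *ARO3* and *GCV2*. In 7.35 mM KCl 18 of the 88 genes were called lower and 5 higher, against 7.04% and 6.38% of all genes, with a median of -0.02. The interaction called 2 of the 88 with the larger value in 0.5 mM KCl and 4 with the larger value in 7.35 mM KCl, against 1.7% and 1.03% of all genes. The values are signed, and the 2 genes were *ARG3* (0.64) and *CHA1* (1.43), whose decrease was smaller in 0.5 mM KCl.

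Arginine synthesis held the most calls, 5 of its 10 genes, with a median of -0.28 and groups that did not overlap for 9 of the 10, against 7.64% of all genes with lower values that did not overlap. *ARG1*, argininosuccinate synthetase, was at 560.4, 481 and 539 CPM in WT and at 415, 341 and 423 CPM in *sis2*Δ (log2 fold change -0.42, SE 0.0788, adjusted p = 0.00459 by edgeR). *ARG4*, the next enzyme, was at 418, 387 and 390.2 CPM in WT and at 314, 276 and 300.1 CPM in *sis2*Δ (log2 fold change -0.43, adjusted p = 0.00026 by the same test). *ARG7*, the mitochondrial ornithine acetyltransferase, was at 227, 204 and 201 CPM in WT and at 161, 147 and 159.8 CPM in *sis2*Δ, with every mutant value below every WT value (log2 fold change -0.43, adjusted p = 0.000269 by edgeR). *ARG3* (log2 fold change -0.31, adjusted p = 0.0305 by edgeR) and *ARG5,6* (-0.26, adjusted p = 0.0411) lost the call without 6 and without 8 of the 12 libraries, each left out in turn.

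In the other pathways the calls were spread thinly. Of the aromatic pathway *ARO3*, a first-step enzyme, was at 219, 199 and 199 CPM in WT and at 160.2, 157 and 149 CPM in *sis2*Δ (log2 fold change -0.40, SE 0.0565, adjusted p = 0.000171 by edgeR). *ARO1*, *ARO8* and *TRP2* of the same list had log2 fold changes of -0.31, -0.25 and -0.25 and lost the call without between 2 and 10 of the 12 libraries. *GCV2*, the glycine decarboxylase, was at 86.4, 78.9 and 74.5 CPM in WT and at 64.7, 62.7 and 57.5 CPM in *sis2*Δ, without overlap (log2 fold change -0.38, adjusted p = 0.00456 by edgeR). *CHA1*, which breaks down serine and threonine, had a log2 fold change of -0.53 (adjusted p = 0.0213 by edgeR) at a low level of 6.48 to 10.7 CPM, and lost the call without any one of 4 low-potassium libraries. Called lower with less support were *LYS2* (-0.32) of lysine synthesis, *HIS4* (-0.35), *MET10* (-0.29) and *STR3* (-0.37) of sulfur metabolism, and *SHM2* (-0.27) of the one-carbon pathway. With each of the 12 libraries left out in turn, *STR3* kept the call in 11 fits, *LYS2* in 9 and *MET10* in 7. *HIS4* and *SHM2* kept it in only 3. Of the 12 branched-chain genes edgeR called 0 and DESeq2 1, with 4 at an unadjusted p under 0.05, and their median was -0.14. Outside the lists, and named after their values were seen, *ASN1* of asparagine synthesis (-0.31) and *HOM3* of threonine and methionine synthesis (-0.35) were called lower as well; *ASN1* lost the call without WT replicate 1 or *sis2*Δ replicate 3, and *HOM3* without any one of 4 low-potassium libraries. *GCN4* mRNA itself was at 962 to 1096 CPM in WT and 875 to 963 CPM in *sis2*Δ, overlapping ranges (log2 fold change -0.16, adjusted p = 0.316 by edgeR).

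**Figure D3:**
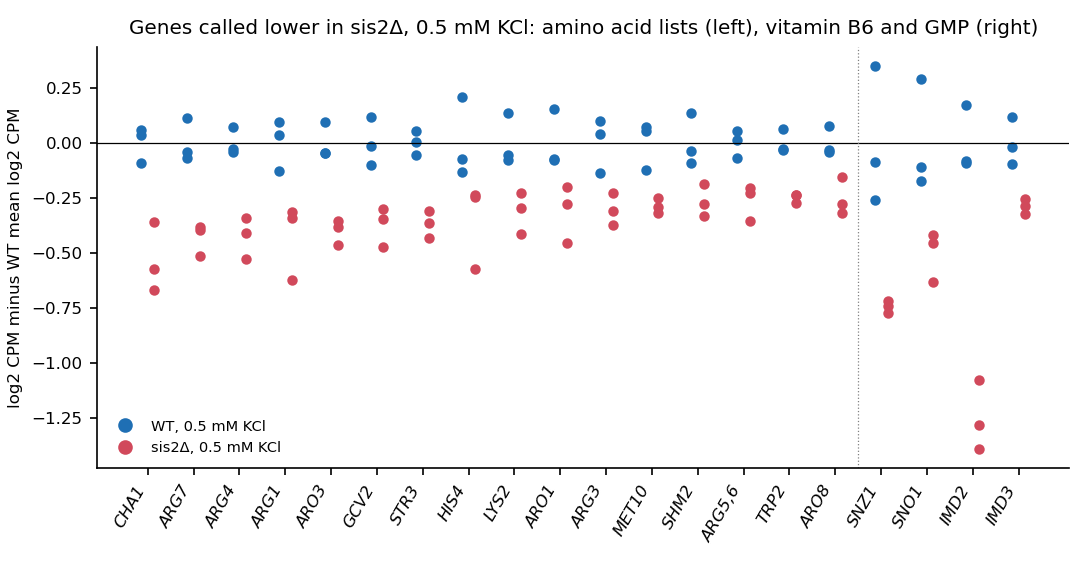
Values of 16 of the 17 genes of the amino acid lists called lower in *sis2*Δ in 0.5 mM KCl, left of the dotted line, and of *SNZ1*, *SNO1*, *IMD2* and *IMD3*, right of it; each point is 1 library, as log2 CPM minus the mean log2 CPM of the 3 WT libraries. The *sis2*Δ points lie below the WT points without overlap for each gene, by most for *IMD2*.

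The promoters were searched in the same window and on both strands for TGACTCA, the letters bound by Gcn4p. The motif stood in 13 of the 37 called lower genes with a promoter sequence (35.1%), in 8 of the 17 amino acid genes called lower (47.1%), in 26 of all 88 amino acid genes (29.5%), in 0 of the 64 called higher and in 164 of all 5895 promoters (2.78%). It is a description only. The 2 robust amino acid genes that carry it, *HIS4* and *LYS2* of other pathways and *SNO1* are shown as examples, with TGACTCA in capitals and 20 bases on each side, 5′ to 3′ on the strand of the gene. For *SNO1* the letters appear as the reverse complement, TGAGTCA.
*ARG4* (chrVIII:141555-141601, minus strand): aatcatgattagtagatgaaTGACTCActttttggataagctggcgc
*ARG7* (chrXIII:396505-396551, minus strand): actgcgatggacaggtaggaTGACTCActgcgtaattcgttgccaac
*HIS4* (chrIII:68506-68552, minus strand): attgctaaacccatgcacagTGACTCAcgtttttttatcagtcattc
*LYS2* (chrII:474094-474140, minus strand): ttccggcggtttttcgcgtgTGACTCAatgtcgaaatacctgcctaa
*SNO1* (chrXIII:458083-458129, minus strand): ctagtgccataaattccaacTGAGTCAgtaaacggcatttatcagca
Of the robust amino acid genes, *ARG4* and *ARG7* carried the motif in the window, while *ARG1*, *ARO3* and *GCV2* did not. *ADH5*, *GGC1*, *ADE12* and *ASN1* carried it outside the amino acid lists, as did *SNO1*.

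The vitamin B6 genes *SNZ1* and *SNO1* lie back to back on chromosome XIII with 448 bp between them, and both were lower in *sis2*Δ. *SNZ1*, which makes pyridoxal phosphate with Sno1p, was at 56.7, 41.9 and 37.2 CPM in WT and at 27.1, 26.7 and 26.1 CPM in *sis2*Δ. The WT libraries were widely spread and the mutant libraries were not, and the groups did not overlap (log2 fold change -0.77, SE 0.115, adjusted p = 0.000338 by edgeR). *SNO1* was at 19.4, 14.7 and 14.1 CPM in WT and at 11.9, 10.3 and 11.6 CPM in *sis2*Δ (log2 fold change -0.51, adjusted p = 0.0102 by edgeR), and lost the call without WT replicate 1. In 7.35 mM KCl neither was called, with log2 fold changes of 0.08 for *SNZ1* and 0.23 for *SNO1*, and the interaction was -0.84 for *SNZ1* (adjusted p = 0.00596) and -0.74 for *SNO1* (adjusted p = 0.0103), both by edgeR. The other 6 genes of the list were not called.

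*IMD2*, an IMP dehydrogenase of GMP synthesis, had the largest decrease besides *SIS2*. It was at 65.6, 55.0 and 54.7 CPM in WT and at 27.6, 24.0 and 22.2 CPM in *sis2*Δ (log2 fold change -1.25, SE 0.0802, adjusted p = 1.9e-09 by edgeR). In 7.35 mM KCl it was at 193 to 196 CPM in WT and 25.7 to 29.0 CPM in *sis2*Δ. The mutant ranges in the media thus overlapped while the WT ranges did not, and the interaction was 1.6 (adjusted p = 8.83e-09 by edgeR). Its relative *IMD3* was at 433, 374 and 394 CPM in WT and at 335, 327 and 319 CPM in *sis2*Δ (log2 fold change -0.29, adjusted p = 0.0416 by edgeR) and lost the call without 8 of the 12 libraries. The genes are close paralogs, between which counting may divide reads.

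Genes of ion transport and of the proteins that act with Sis2p changed little. Of 20 genes for potassium and sodium transport and its regulation, 17 had a negative log2 fold change, with a median of -0.04. *ENA1*, the plasma membrane sodium pump, was the only one of the 20 called. It was at 24.8, 23.5 and 22.4 CPM in WT and at 17.9, 18.1 and 18.0 CPM in *sis2*Δ, a separation with little spread in the mutant (log2 fold change -0.39, SE 0.0772, adjusted p = 0.00853 by edgeR), but the call was lost without WT replicate 1. Its near-identical neighbour *ENA2*, at 0.31 to 1.05 CPM, had a log2 fold change of 0.90 that was not called (adjusted p = 0.138). The potassium transporters *TRK1* and *TRK2* had log2 fold changes of -0.05 (SE 0.0632) and -0.04 (SE 0.0678). The phosphatase genes *PPZ1* and *PPZ2* had -0.08 (SE 0.0599) and -0.01 (SE 0.0638). The kinase genes *HAL5* and *SAT4* had -0.03 (SE 0.063) and -0.07 (SE 0.0623), and the *SIS2* relatives *VHS3* and *CAB3* had -0.01 (SE 0.0553) and 0.00 (SE 0.0721). The smallest adjusted p of these 8 genes was 0.57 (*PPZ1*, by edgeR). Of the 9 genes of coenzyme A synthesis 0 were called by edgeR or DESeq2, with 1 at an unadjusted p under 0.05.

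In the lists of energy metabolism edgeR made 1 call in low potassium, that of *PYC2*, which DESeq2 called too, as it did *COX6*, *INH1*, *MDH1* and *ENO1*. Of the 28 nuclear genes of the electron transport chain (ETC), 26 had a positive log2 fold change, against 50.3% of all genes, with a median of 0.14. The groups did not overlap, with *sis2*Δ higher, for 14 of the 28, against 9.12% of all genes. Of the 28, 0 were called by edgeR, against 1 by DESeq2 and 13 at an unadjusted p under 0.05. In 7.35 mM KCl 19 were called higher, against 6.38% of all genes, with a median of 0.29. Of the 17 genes of ATP synthase and its inhibitors all were positive, with a median of 0.15. The groups did not overlap, with *sis2*Δ higher, for 5 of them, against 9.12% of all genes. Of the 17, 0 were called by edgeR (7 at an unadjusted p under 0.05), against 13 called higher in 7.35 mM KCl. Of all genes, 1.2% were called higher in 0.5 mM KCl and 6.38% in 7.35 mM KCl. The interaction called 2 genes of each list, with the larger value in 7.35 mM KCl, against 1.03% of all genes. *INH1*, the inhibitor of the ATPase, was at 74.6, 88.5 and 87.7 CPM in WT and at 96.6, 106 and 101 CPM in *sis2*Δ, groups that did not overlap (log2 fold change 0.28, SE 0.0719, adjusted p = 0.0535 by edgeR). DESeq2 and the block called it, with adjusted p = 0.0309 and 0.0477. *POR1*, the channel of the outer mitochondrial membrane, was higher at a log2 fold change of 0.27 (adjusted p = 0.0366 by edgeR) and lost the call without any one of 4 low-potassium libraries. *PYC2*, a pyruvate carboxylase, was lower at -0.25 (adjusted p = 0.0473 by edgeR) and lost the call without 8 of the 12 libraries. Of 17 glycolytic genes edgeR called 0 and DESeq2 1, with 4 at an unadjusted p under 0.05, and 4 were called higher without *sis2*Δ replicate 2. Of 138 cytosolic ribosomal protein genes 0 were called by either tool (5 at an unadjusted p under 0.05), and of 8 core histone genes edgeR called 0 and DESeq2 1 (3 at an unadjusted p under 0.05). Positive values were held by 114 of the 138, with a median of 0.04, and by all 8 histone genes, with a median of 0.11.

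**Figure D4:**
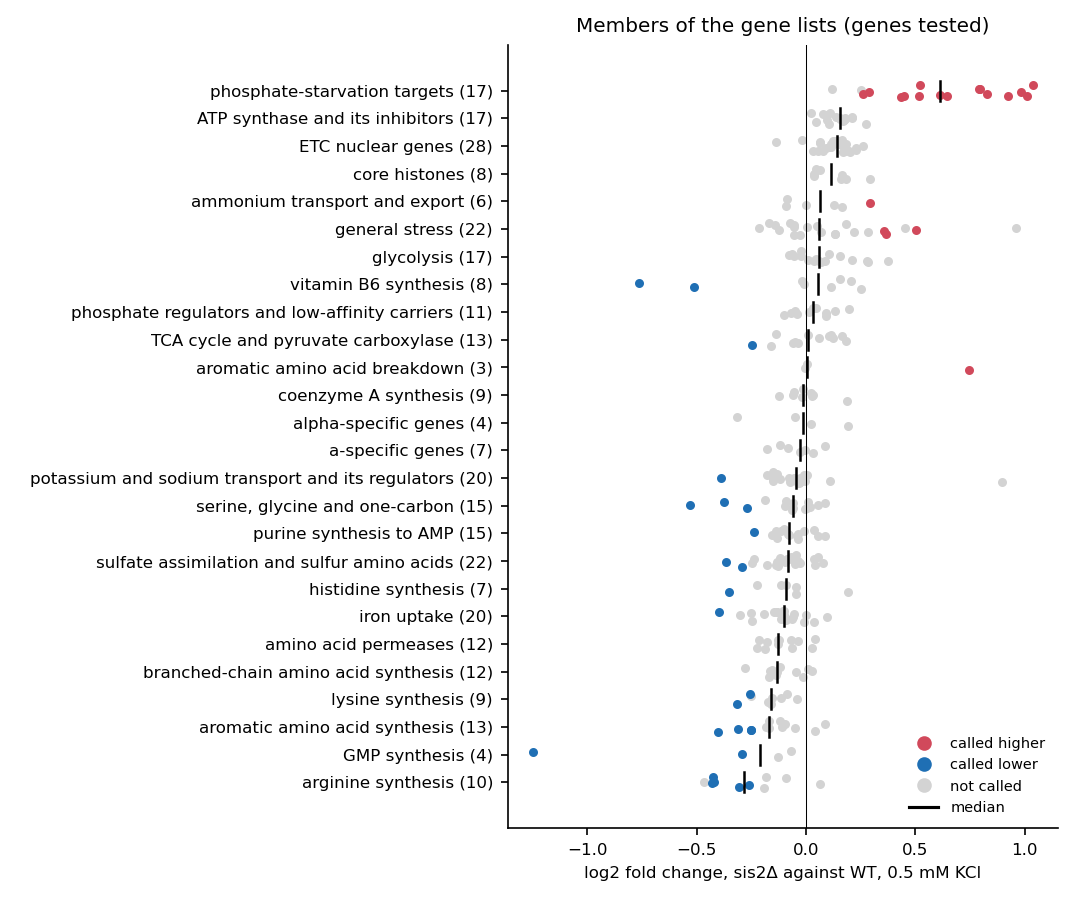
Log2 fold changes of *sis2*Δ relative to WT in 0.5 mM KCl for the members of the gene lists, ordered by list median (black bar), with the number of genes tested in parentheses. Red points were called higher, blue points lower and grey points were not called. *SIS2* is on none of the lists. The lists of *SIS2* neighbours, the mitochondrial genome, cytosolic ribosomal proteins and RNA genes without a poly(A) tail are not shown. The phosphate-starvation targets lie to the right with 15 of 17 called, and arginine synthesis lies farthest to the left by median.

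Among the other higher genes, *ARO9*, an aromatic aminotransferase that begins the breakdown of aromatic amino acids, was at 20.0, 19.2 and 19.6 CPM in WT and at 31.8, 29.8 and 36.8 CPM in *sis2*Δ (log2 fold change 0.74, SE 0.0761, adjusted p = 2.54e-06 by edgeR). It was at 16.0 to 17.4 CPM in WT and at 9.77 to 11.8 CPM in *sis2*Δ in 7.35 mM KCl, the opposite direction, and the interaction was 1.37 (adjusted p = 1.02e-07 by edgeR). The other genes of this short list, *ARO10* (0.01) and *ARO80*, were not called. YHR137C-A, a feature on the opposite strand of *ARO9*, had a log2 fold change of 0.86. The strand setting of the counting is not given in the sources used here, so that reads of both may not have been told apart. *ARO9* also lies next to *SPL2*, back to back with 608 bp between them.

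*BNA2*, the first enzyme of NAD synthesis from tryptophan, was at 12.6, 12.7 and 12.1 CPM in WT and at 19.6, 17.9 and 20.6 CPM in *sis2*Δ, with tight groups that did not overlap (log2 fold change 0.64, SE 0.101, adjusted p = 0.000673 by edgeR). Its increase was 0.76 in 7.35 mM KCl. *MEP3*, a low-affinity ammonium permease, was the only one of 6 genes of ammonium transport called, at 0.29 (adjusted p = 0.018 by edgeR), and lost the call without any one of 4 low-potassium libraries. Further single genes called higher were named after their values were seen. *GIP1*, a partner of the phosphatase Glc7p in meiosis, was at 12.7, 14.3 and 14.6 CPM in WT and at 20.4, 22 and 22.4 CPM in *sis2*Δ (log2 fold change 0.64, adjusted p = 1.73e-05 by edgeR, robust). *CDA1*, a chitin deacetylase of the spore wall, was at 3.28, 3.46 and 2.96 CPM in WT and at 5.60, 4.92 and 6.98 CPM in *sis2*Δ (log2 fold change 0.86, adjusted p = 0.000171 by edgeR, robust). *SPS1* (0.66), *DMC1* (0.41), *SMA1* (0.84) and *SSP1* (0.44) were called too and lost the call without between 3 and 11 of the 12 libraries, and *SSP1* also with the replicate block (adjusted p = 0.052).

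Of 22 general stress genes 3 were called higher, *HSP26* (0.50), *DDR2* (0.37) and *HOR7* (0.36), and 0 lower, against 1.2% and 0.583% of all genes, and the list median was 0.06. DESeq2 called 2 of the 22. None of the 3 was robust, *HSP26* held the call without only 2 of the 12 libraries, and the list had 8 calls without *sis2*Δ replicate 2. *HSP12* was at 278, 227 and 219 CPM in WT and at 400.4, 401 and 605 CPM in *sis2*Δ. The groups did not overlap, but *sis2*Δ replicate 3 was well above the other mutant libraries (log2 fold change 0.96, SE 0.259, adjusted p = 0.0669 by edgeR), and the gene was called in a fit of the 6 low-potassium libraries alone (0.000126) and with the block (0.013). *FIT3*, a cell wall mannoprotein that helps retain siderophore iron, was the only one of 20 iron uptake genes called, and it was lower (log2 fold change -0.40, adjusted p = 0.00974 by edgeR), with the call lost without WT replicate 1 or *sis2*Δ replicate 3. Of the 20, 18 had a negative log2 fold change, with a median of -0.10. In 7.35 mM KCl 9 of them were called lower, against 7.04% of all genes. *SWT21*, linked to splicing, was lower in each mutant library, at 16.4, 15.8 and 15.2 CPM in WT and 9.81, 10.9 and 8.45 CPM in *sis2*Δ (log2 fold change -0.70, adjusted p = 1.61e-05 by edgeR, robust), and at -0.82 in 7.35 mM KCl.

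The largest increase of all, that of *AAD15*, an aryl-alcohol dehydrogenase gene near the end of chromosome XV, rested on very low levels of 0.0798 to 0.146 CPM in WT and 0.519 to 0.721 CPM in *sis2*Δ (log2 fold change 2.56, SE 0.385, adjusted p = 0.000353 by edgeR). It belongs to a family of similar genes. YOL164W-A, the nearest called feature, 2051 bp away, was at 1.09, 1.01 and 1.15 CPM in WT and at 3.11, 2.30 and 2.68 CPM in *sis2*Δ (log2 fold change 1.31, adjusted p = 1.24e-05 by edgeR). Both were robust, and neither was called in 7.35 mM KCl.

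RNA genes whose products lack a poly(A) tail made up 13 of the 119 calls, 12 higher and 1 lower, among 165 tested of 398 in the table, against 1.2% of all genes called higher and 0.583% called lower. The higher calls rested on single libraries: without any one of the 12 libraries between 4 and 15 were left, the fewest without *sis2*Δ replicate 3 and the most without *sis2*Δ replicate 2, and 3 were robust. DESeq2 called 9 of these genes. Their median log2 fold change was 0.15. The share of all counts on such genes ran from 0.0371% to 0.0402% in WT and from 0.0417% to 0.0434% in *sis2*Δ, so that the groups did not overlap. Its part in the calls of these genes was not tested. With these genes left out before normalization, 103 genes were called, 102 of them among the 119.

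Called genes were compared across the media. Of the 80 higher genes, 27 were also higher in 7.35 mM KCl, 8 were lower there and 45 were not called there. Of the 39 lower genes, 20 were also lower, the deleted *SIS2* among them, 2 were higher and 17 were not called. Of all genes tested, 6.38% were called higher and 7.04% lower in 7.35 mM KCl. Both comparisons come from 1 fit but share no library. Of the 62 genes called only in 0.5 mM KCl, 22 passed the interaction, and over all 119 genes 40 did, against 2.74% of all genes tested. The interaction uses the same 0.5 mM KCl libraries as the calls, so that these counts are not independent of them. One of the 40 was *CHA1*, which was at 9.67, 10.6 and 10.7 CPM in WT and at 6.93, 8.04 and 6.48 CPM in *sis2*Δ in 0.5 mM KCl but at 213 to 247 CPM in WT and 54.1 to 72.2 CPM in *sis2*Δ in 7.35 mM KCl (interaction 1.43, adjusted p = 3.78e-06 by edgeR). *STR3*, a cystathionine beta-lyase, was lower in 0.5 mM KCl (-0.37) and higher in 7.35 mM KCl (0.44), with an interaction of -0.81 (adjusted p = 0.000201 by edgeR).

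**Figure D5:**
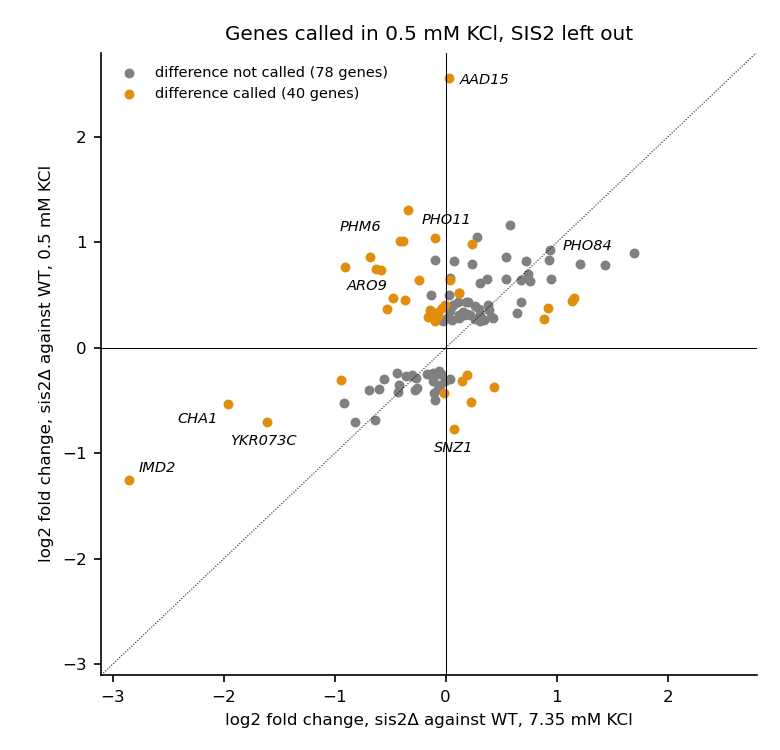
Log2 fold changes of *sis2*Δ relative to WT in 7.35 mM KCl (x axis) and 0.5 mM KCl (y axis) for the 118 genes called in 0.5 mM KCl besides *SIS2*; orange points are the 40 genes whose difference between the media was called, grey points the other 78, and the dotted line marks equal values. *IMD2* lies far left of the line, with the larger decrease in 7.35 mM KCl, and *AAD15* lies highest, near 0 on the x axis.

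Some called genes were neighbours. Of the 101 called genes placed on the R64 annotation, 19 formed 10 pairs of adjacent genes, and 9 of the 10 pairs changed in the same direction. They included the deleted *SIS2* and its neighbour YKR073C, *SNO1* and *SNZ1*, *SPL2* and *ARO9*, and *PHO81* and *YHB1*. Others were *CHA1* and *VAC17*, *VTC3* and *CTF19*, and *CTF19* and *IRC15*, the last of which overlap by 27 bp and may share reads. The exception was *PHO12*, higher in *sis2*Δ, beside *IMD2*, lower, with 893 bp between them on chromosome VIII. The share of such pairs among all adjacent genes was not computed.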

How the data were processed

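Poly(A)-selected, strand-specific RNAseq libraries were read as pairs of 150 bases. The authors deposited expected counts for 7112 features in 12 libraries, without normalization, of which 40.11% are whole numbers. The submitters' processing notes name bcl2fastq, cutadapt 2.6, STAR 2.7.6a, featureCounts (Subread 1.6.2) and the build R64; the annotation and the strand setting of the counting are not given in the sources used here. Expected counts were rounded, filtered with filterByExpr (6691 genes), normalized by TMM (factors 0.960 to 1.03) and fitted in edgeR 4.0.16 (R 4.3.3) with 1 term for each of the 4 groups and no block, following the study's model. Contrasts were tested with glmQLFTest and Benjamini-Hochberg adjustment over all genes, at 0.05. SE was obtained as the size of the log2 fold change over the root of the F statistic. The biological coefficient of variation was 5.70%, and replicates varied by more than counting noise; for features with few counts, counting error adds to this. Nothing states whether the triplicate cultures were independent beyond their label. The code was tested on simulated data.

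The labels' batch number equals the replicate number, so the numbers pair libraries by label. Deviations from group means correlated with a median r of 0.0790 (-0.0478 to 0.0867) over the 3 same-numbered pairs in 0.5 mM KCl and of -0.0226 (-0.139 to 0.0742) over the 6 others. Alternatives were DESeq2 1.42.0, its size factors, no filter, a minimum mean of 10 counts, the block, leaving out RNA genes without a poly(A) tail, only the 6 libraries compared, and leaving out each library. Named genes were *SIS2* and its neighbours, up to 15 changes in each direction that averaged 50 counts or more without overlap, the called members and extremes of 30 lists, the potassium regulators, up to 5 interactions in each direction, and any called gene; a few values are not reported here. The comparison, lists and genes were chosen with earlier results of these data known. Promoters and positions came from RefSeq R64, where 6034 features matched by locus tag. Figures used matplotlib 3.10.9.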

Additional observations from a re-analysis of the deposited data

Results flagged for a closer look

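The following genes, called in 0.5 mM KCl, also passed edgeR's interaction test, so that the effect of the deletion differed between the media by a direct test of that difference. Each value is the log2 fold change of *sis2*Δ relative to WT in 0.5 mM KCl minus that in 7.35 mM KCl. They were 40 of the 183 genes the interaction called among 6691. Of the phosphate-starvation targets, the values were those of *PHM6* (1.40), *PHO11* (1.14), *GIT1* (0.81), *PHO5* (0.74), *VTC1* (0.61), *VTC4* (0.40), *PHM8* (0.395) and *VTC2* (0.35). Of the amino acid genes they were those of *STR3* (-0.81), *ARO1* (-0.46), *ARG4* (-0.41), *ARG3* (0.64) and *CHA1* (1.43). A negative value of *ARG4* and *STR3* marks a decrease in 0.5 mM KCl that was not seen in 7.35 mM KCl, and the positive values of *ARG3* and *CHA1* mark a smaller decrease in 0.5 mM KCl. The vitamin B6 genes, *IMD2* and the GTP/GDP carrier gene *GGC1* had values of *SNZ1* (-0.84), *SNO1* (-0.74), *IMD2* (1.6) and *GGC1* (-0.45). Among RNA genes without a poly(A) tail these were *tG(GCC)D2* (-0.695), *SCR1* (-0.68), *snR86* (-0.62) and *LSR1* (-0.54). *ARO9* (1.37), YHR137C-A (1.54), *MEP3* (0.41), *CTF19* (0.50), *IRC15* (0.41) and *BUB2* (0.42) were higher with the larger value in 0.5 mM KCl, where reads of *ARO9* and YHR137C-A, and of the overlapping *CTF19* and *IRC15*, may not be told apart. Features at chromosome ends or of small or uncharacterized genes were *AAD15* (2.53), YOL164W-A (1.65), YMR321C (1.67), YPR002C-A (1.43), YIR042C (1.32), YPR078C (0.95), YER188W (0.90) and YDR541C (0.88), several of them with few counts. The remaining ones were YHR033W (0.38), YNL208W (0.41), YNL046W (0.41), YER034W (0.44) and YKR073C (0.91); of these YKR073C lies next to *SIS2*.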

How the results depend on the processing

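Counts of called genes moved most with single libraries. Leaving out each of the 12 in turn, the count lay between 54 and 440 in 0.5 mM KCl, between 488 and 1083 in 7.35 mM KCl and between 111 and 340 for the interaction, and the share called higher in 0.5 mM KCl went from 80 of 119 to 244 of 440 without *sis2*Δ 0.5 mM KCl replicate 2. Of the low-potassium libraries, WT replicate 2 (121 genes without it) and *sis2*Δ replicates 1 (111) and 2 (340) moved the interaction most. In 0.5 mM KCl the count was 137 with DESeq2, 110 with its size factors, 107 with no filter, 118 with a mean of at least 10 counts, 103 without RNA genes that lack a poly(A) tail and 99 with only the 6 libraries compared. With the replicate block it was 145, of which 116 were among the 119, and 249 for the interaction and 1057 in 7.35 mM KCl; the called genes lost were *SSP1*, *snR60* and *tV(AAC)G2*, and *HSP12*, *INH1* and *LEU9* were among those gained. The genes lower by the interaction went from 69 to 105 with the block and to 118 with DESeq2. The medians of 8 lists near 0 changed sign with a library left out. Aromatic amino acid breakdown ranged from -0.0169 (no *sis2*Δ 0.5 mM KCl replicate 3) to 0.0675, general stress from -0.0018 (the same library) to 0.149, and the TCA cycle with pyruvate carboxylase from -0.00638 (no WT 0.5 mM KCl replicate 2) to 0.0259. The other 5 were phosphate regulators and low-affinity carriers (-0.00928 to 0.0449), coenzyme A synthesis (-0.06 to 0.0131), the mitochondrial genome (-0.269 to 0.239), a-specific genes (-0.106 to 0.119) and alpha-specific genes (-0.0932 to 0.1). Of 3312 values of 175 named genes under the alternatives, 2846 stayed on their side of the threshold, 435 lost the call and 31 gained it. Where the gene was called in either fit, 0 values changed sign. Sign changes of genes called in neither fit were not counted apart and are among the 2846. The causes were not tested. For features with few counts, such as *AAD15*, counting error adds to the replicate spread.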
